A study of Homo sapiens with 48 samples.

Results

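Silencing both mitofusins at once was set against silencing either one alone in senescent SK-MEL-103 cells, an established human melanoma line. The comparison used 9 of the 48 messenger RNA libraries of the series: 3 libraries each with small interfering RNA (siRNA) against MFN1 and MFN2 together (siMFN1+2), against MFN1 (siMFN1) and against MFN2 (siMFN2), chosen by their labels. Each gene's contrast was the siMFN1+2 group effect minus 0.5 times each of the 2 single group effects. Cells of all 3 groups were transfected 1 day before a 48 h exposure to 200 nM doxorubicin, a DNA-damaging topoisomerase II poison that induces senescence, and were kept for up to 7 days. A group with a control siRNA and doxorubicin, and a proliferating group with the control siRNA and no drug, served as outside levels. A group with siRNA against another gene, MAVS (siMAVS), and doxorubicin was in the fit too. It therefore took part in the filter, the scaling and the shared spread behind the p-values. The question the arms address is what loss of the second mitofusin adds once the first is silenced. No source used here states whether the 3 libraries of a group came from separate cultures, so p-values measure the spread between these libraries, which may be technical. In such bulk RNA, fewer cells of one kind and less RNA per cell cannot be told apart.

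The mitofusins MFN1 and MFN2 are GTPases of the outer mitochondrial membrane that tether neighbouring mitochondria and fuse them, and they can stand in for each other in part. The inner compartment holds a small circular genome that encodes messenger RNAs for core subunits of the respiratory chain and ATP synthase, together with the ribosomal and transfer RNAs to translate them. Both strands of that genome are read as long transcripts, which are cut apart mostly at the transfer RNAs. Nucleic acid that leaves mitochondria can be sensed in the cytosol, through cGAS and STING for DNA or through RIG-I, MDA5 and the adaptor MAVS for RNA, and such sensing induces interferon-stimulated genes.

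Total counts were 18434699 to 71851091 per library and followed the replicate number. Libraries of number 1 held 65586196 to 71851091 counts, those of number 2 held 36604566 to 44905432, and those of number 3 held 18434699 to 26862564, with 1 library of each number in each group. Of the melanocyte lineage list, 10 of 17 genes had enough counts to be tested and 5 of those 10 averaged under 1 CPM, a counts-per-million value, in each group. SOX10, the neural crest transcription factor, averaged 614, 662 and 533 CPM in the siMFN1+2, siMFN1 and siMFN2 libraries, whereas the pigment genes PMEL, TYRP1 and DCT stayed below 0.5 CPM and MLANA and TYR had too few counts to be tested. Of 18 markers of leukocytes, endothelium, epithelium and fibroblasts, 9 were tested, and their summed level was 97.2 to 103 CPM in siMFN1+2 libraries, against 101 to 126 CPM in siMFN1 and 113 to 123.2 CPM in siMFN2 libraries. COL1A1 and LUM made up most of that sum, the leukocyte gene PTPRC stayed below 0.8 CPM in each group, and the part of these levels in the results was not tested.

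Both target genes were lowered in the libraries that should lack them. MFN1 (ENSG00000171109, chromosome 3, 179347692 to 179394931 on GRCh38) had 21.9, 27.4 and 19.3 CPM in siMFN1+2 libraries, 19.9, 20.9 and 14.005 CPM in siMFN1 libraries and 58.0, 56.7 and 60.8 CPM in siMFN2 libraries. MFN2 (ENSG00000116688, chromosome 1, 11980181 to 12013514) had 23.3, 27.4 and 20.8 CPM in siMFN1+2 libraries, 96.5, 89.5 and 108 CPM in siMFN1 libraries and 19.8, 21.2 and 20.5 CPM in siMFN2 libraries. The siMFN1+2 libraries therefore overlapped the matching single arm for each gene and lay below the other arm without overlap. In each replicate number, residual MFN1 and MFN2 were higher in the siMFN1+2 library than in the matching single library. Against the matching single arm, the log2 difference was 0.32 (SE 0.16) for MFN1 over siMFN1 and 0.22 (SE 0.11) for MFN2 over siMFN2, neither past the threshold in edgeR (adjusted p near 1 for both). The averaged contrast gives a log2 fold change of -0.91 for MFN2 (SE 0.09, edgeR adjusted p = 0.00028) and -0.52 for MFN1 (SE 0.14, edgeR adjusted p near 1). Those values come from the single arm in which each gene was left untouched and do not describe a loss beyond the matching single. MAVS (ENSG00000088888, chromosome 20, 3846799 to 3876123), the membrane adaptor, had 190 ± 6.74 CPM in siMFN1+2 libraries, against 181 ± 8.02 CPM in siMFN1 and 195 ± 19.1 CPM in siMFN2 libraries (SD, n = 3 each).

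**Figure D1:**
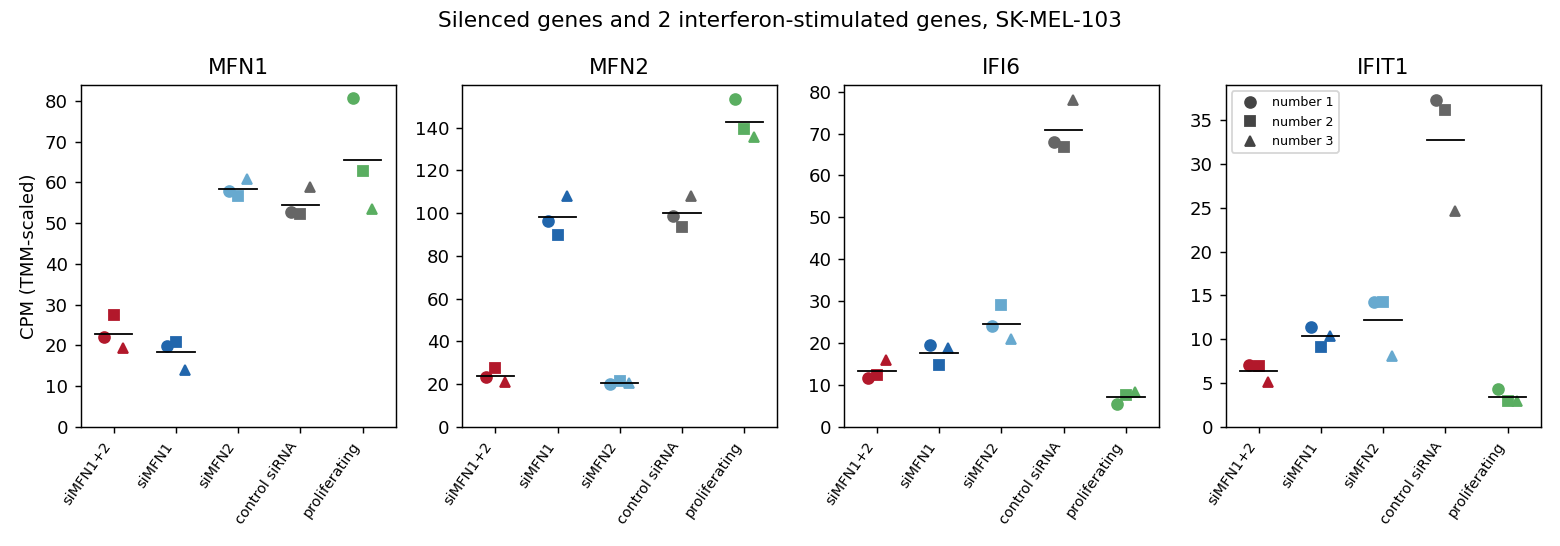
CPM on TMM-scaled library sizes (y axis from 0) of MFN1, MFN2, IFI6 and IFIT1 in SK-MEL-103 libraries; each point is 1 library, shapes give the replicate number, and the line is the group mean. MFN1 and MFN2 in siMFN1+2 libraries overlap the matching single arm, and IFI6 averages 13.4 CPM with siMFN1+2, against 17.7 and 24.6 CPM with siMFN1 and siMFN2 and 70.9 CPM with the control siRNA.

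Of the 13 messenger RNAs encoded by the mitochondrial genome, 8 fell with siMFN1+2 relative to single silencing. Without siMFN1+2 library 1, or without siMFN1+2 library 3, the count was 4 of 13, and MT-CO3, MT-ATP6, MT-ND5 and MT-ND4L missed the threshold. Of 17945 genes tested, 11 were called lower at a Benjamini-Hochberg adjusted p below 0.05 by edgeR's quasi-likelihood test, 0.0613% of all, and 0 were called higher. At an unadjusted p below 0.05 there were 169 genes, 97 of them lower, and 291 genes with the replicate block. The 169 were 0.942% of all, under the share of 0.05 expected if no gene differed. A gene not called here is therefore not shown to be unchanged. DESeq2 called 15 genes, all lower. The 11 were MFN2, 8 of the 13 mitochondrial messenger RNAs and 2 nuclear pseudogenes that are near-identical copies of mitochondrial genes. In 11 of the 13 messenger RNAs all 3 siMFN1+2 libraries lay below all 6 single libraries, a separation found in 0.591% of all genes tested, with 0.429% lying above all singles. The median log2 fold change of the 13 was -0.96, beside 0.01 over all genes tested. Among the 11236 genes whose mean log2 CPM was 2 or higher, only 7 moved by a log2 fold change of 1 or more in either direction, and 5 of them were mitochondrial messenger RNAs.

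Subunits of cytochrome c oxidase, complex IV, held 3 of the 4 most negative log2 fold changes among the messenger RNAs. MT-CO3 (ENSG00000198938, mitochondrial positions 9207 to 9990) had 742, 957 and 744 CPM in siMFN1+2 libraries, against 2212, 2346 and 2033 CPM in siMFN1 and 2032, 2357 and 2153 CPM in siMFN2 libraries. The groups did not overlap, and the highest siMFN1+2 library stood below the lowest single library by a wide margin. The log2 fold change of MT-CO3 was -1.43 (SE 0.20, 95% interval -1.85 to -1.00, edgeR adjusted p = 0.0049), a level 62.8% lower. Without siMFN1+2 library 1 the value was -1.37 (edgeR adjusted p = 0.0994), and without siMFN1+2 library 3 it was -1.37 (edgeR adjusted p = 0.0843). MT-CO1, the catalytic subunit (positions 5904 to 7445), had 2292, 3177 and 2365 CPM in siMFN1+2 libraries, against 6065, 7313 and 5605 CPM in siMFN1 and 5827, 6665 and 6182 CPM in siMFN2 libraries, a log2 fold change of -1.27 (SE 0.14, edgeR adjusted p = 0.00044). MT-CO2, which carries the copper centre that takes electrons from cytochrome c, averaged 941 ± 160 CPM in siMFN1+2 libraries, against 2019 ± 194 CPM in siMFN1 and 2228 ± 168 CPM in siMFN2 libraries (SD, n = 3 each; log2 fold change -1.17, SE 0.13). All 3 complex IV messenger RNAs were thus called, with no overlap between the siMFN1+2 and single libraries in any of them, and MT-CO1 and MT-CO2 stayed past the threshold whichever single library was dropped.

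The messenger RNA of complex III was called as well. MT-CYB, cytochrome b (positions 14747 to 15887), had 529, 680 and 543 CPM in siMFN1+2 libraries, against 1302, 1483 and 1268 CPM in siMFN1 and 1274, 1263 and 1422 CPM in siMFN2 libraries. Its log2 fold change was -1.19 (SE 0.12, edgeR adjusted p = 0.00028), again without overlap. Of the ATP synthase messenger RNAs, MT-ATP6 averaged 681 ± 99.0 CPM in siMFN1+2 libraries, against 1284 ± 182 CPM in siMFN1 and 1298 ± 69.0 CPM in siMFN2 libraries (SD, n = 3 each; log2 fold change -0.92, SE 0.13, edgeR adjusted p = 0.0054). MT-ATP8, which shares a bicistronic transcript and 46 bases (positions 8527 to 8572) with MT-ATP6, had 49.5, 78.9 and 57.6 CPM in siMFN1+2 libraries. The single libraries had 80.0, 118 and 106 CPM of MT-ATP8 with siMFN1 and 104, 101 and 130 CPM with siMFN2, and the highest siMFN1+2 library was just below the lowest siMFN1 library. MT-ATP8 had a log2 fold change of -0.78 (SE 0.17), which missed the threshold without a replicate block (edgeR adjusted p = 0.35) and passed it with one (-0.80, edgeR adjusted p = 0.045), though not when the siMFN2 library without a number in its label was left out of the blocked fit (adjusted p = 0.13).

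Messenger RNAs for complex I, the NADH dehydrogenase, spread over a wider range. MT-ND5, MT-ND4 and MT-ND4L, parts of its membrane arm, were called, with log2 fold changes of -1.01 (SE 0.14), -0.96 (SE 0.12) and -0.88 (SE 0.14) and edgeR adjusted p of 0.0049, 0.0017 and 0.018. MT-ND3 had 227, 257 and 220 CPM in siMFN1+2 libraries, against 464, 504 and 416 CPM in siMFN1 and 426, 503 and 435 CPM in siMFN2 libraries. Although its libraries did not overlap and its log2 fold change was -0.96 (SE 0.20), MT-ND3 was not called (edgeR adjusted p = 0.22), whereas DESeq2 gave it an adjusted p of 0.0019. MT-ND1 had 662, 788 and 821 CPM in siMFN1+2 libraries, against 880, 1065 and 1076 CPM in siMFN1 and 1014, 1019 and 1411 CPM in siMFN2 libraries, which did not overlap either (log2 fold change -0.51, SE 0.13, edgeR adjusted p near 1). With no filter on low counts, edgeR called both MT-ND3 (adjusted p = 3.7e-16) and MT-ND1 (adjusted p = 0.00095). MT-ND2 had 1016, 1252 and 1190 CPM in siMFN1+2 libraries, against 1166, 1343 and 1235 CPM in siMFN1 and 1430, 1470 and 1821 CPM in siMFN2 libraries. The MT-ND2 groups overlapped and its log2 fold change was -0.28 (SE 0.16, 95% interval -0.62 to 0.06).

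MT-ND6, the 1 messenger RNA read from the opposite strand (positions 14149 to 14673), was the only one of the 13 with a positive value. It had 21.8, 45.0 and 16.7 CPM in siMFN1+2 libraries, against 15.5, 28.0 and 9.32 CPM in siMFN1 and 24.8, 26.5 and 16.98 CPM in siMFN2 libraries. These groups overlapped, with a log2 fold change of 0.48 (SE 0.34, 95% interval -0.24 to 1.19), and without siMFN1+2 library 2, the highest, the value was -0.05. The kit kept strand, but the strand setting of the counting is not given in the sources used here, so reads from the other strand cannot be told apart from those of MT-ND6. Per kilobase it had 53.0, 33.5 and 43.4 CPM in siMFN1+2, siMFN1 and siMFN2 libraries, the lowest of the 13 in each arm. The libraries were made from polyadenylated RNA, so its counts hold only what that selection kept.

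**Figure D2:**
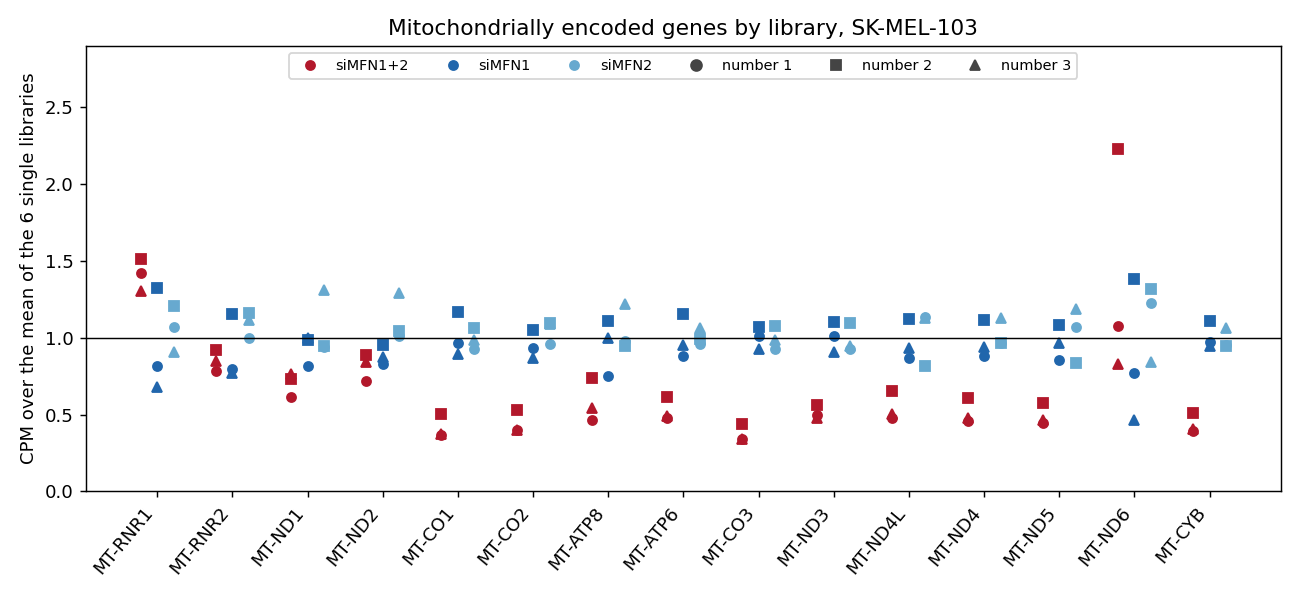
Level of each mitochondrially encoded gene in each SK-MEL-103 library, as TMM-scaled CPM over the mean of the 6 single libraries (y axis, ratio), with genes in genome order and shapes for the replicate number. In 11 of the 13 messenger RNAs the 3 siMFN1+2 libraries lie below all 6 single libraries, whereas in MT-ND2, MT-ND6 and both ribosomal RNAs they do not.

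The 2 ribosomal RNAs, at the start of the same heavy-strand transcripts, were not called. MT-RNR1, the small-subunit RNA, had 480, 511 and 439 CPM in siMFN1+2 libraries, against 275, 446 and 229 CPM in siMFN1 and 361, 407 and 305 CPM in siMFN2 libraries, a log2 fold change of 0.50 (SE 0.38). MT-RNR2, the large-subunit RNA, had 2049, 2400 and 2215 CPM in siMFN1+2 libraries, against 2085, 3006 and 2017 CPM in siMFN1 and 2599, 3033 and 2917 CPM in siMFN2 libraries, a log2 fold change of -0.23 (SE 0.22). The siMFN1+2 libraries overlapped the single libraries in both. Because the libraries were made from polyadenylated RNA, ribosomal RNA counts hold only what that selection kept. Counts of the 13 messenger RNAs per count of the 2 ribosomal RNAs were 3.76 ± 0.278 in siMFN1+2 libraries, against 7.77 ± 0.994 in siMFN1 and 6.63 ± 0.422 in siMFN2 libraries (SD, n = 3 each). The control siRNA group had 6.73 ± 0.451 by the same measure. The siMAVS libraries had 7.41, 3.89 and 5.74, so their library 2 lay within the siMFN1+2 range of 3.59 to 4.08. Of the 22 transfer RNA genes, 13 had enough counts to be tested and 0 were called by edgeR, with 2 at an unadjusted p below 0.05 and log2 fold changes from -1.85 to 0.67.

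In genome order the heavy-strand messenger RNAs nearest the ribosomal RNAs had the values closest to 0. MT-ND1 and MT-ND2 had log2 fold changes of -0.51 and -0.28, and the 10 heavy-strand messenger RNAs that follow, MT-CO1 to MT-CYB, had values from -1.43 to -0.78. MT-CO1 had 1693 CPM per kilobase in siMFN1+2 libraries, against 4103 and 4037 CPM per kilobase in siMFN1 and siMFN2 libraries, and was the highest of the 13 messenger RNAs in each arm. MT-ND2 had 1106 CPM per kilobase in siMFN1+2 libraries, against 1198 and 1510 CPM per kilobase in siMFN1 and siMFN2 libraries. MT-CO3 had 1039 CPM per kilobase in siMFN1+2 libraries, against 2802 and 2781 CPM per kilobase in the same arms, so that the mean of MT-CO3 was below that of MT-ND2 in siMFN1+2 libraries and above it in both single arms. By library, MT-CO3 was lower than MT-ND2 in 2 of the 3 siMFN1+2 libraries, stood at 1221 against 1201 CPM per kilobase in siMFN1+2 library 2, and was higher in each single library.

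**Figure D3:**
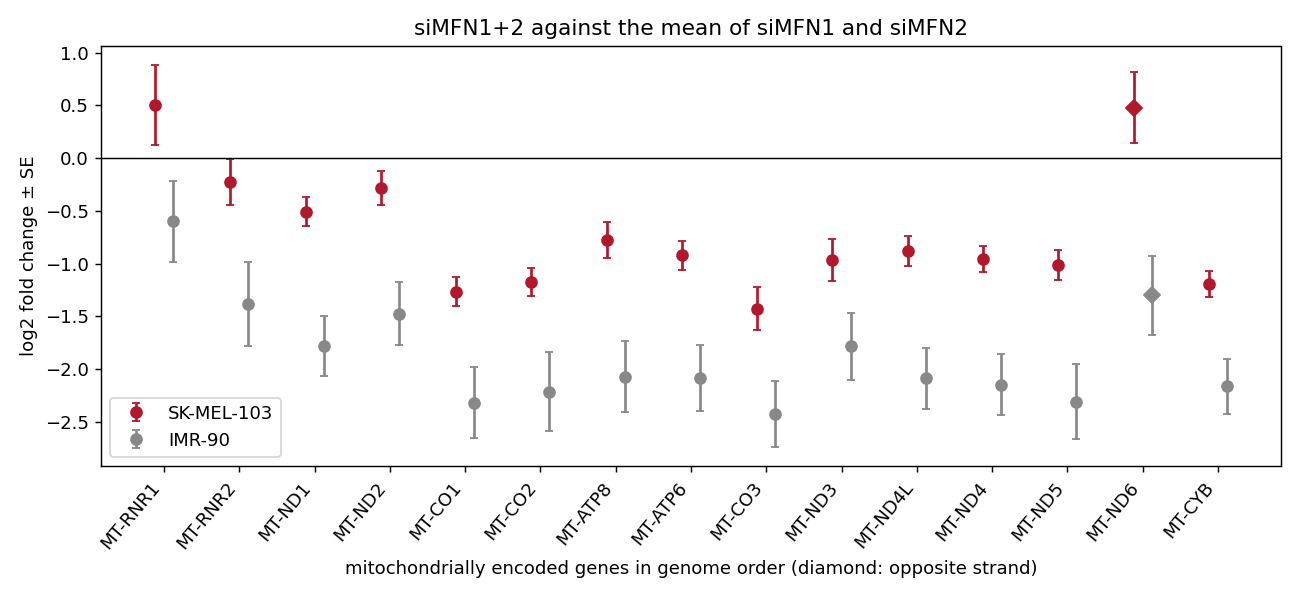
Log2 fold change of siMFN1+2 against the mean of siMFN1 and siMFN2 (y axis, points with SE) for the 15 mitochondrially encoded messenger and ribosomal RNAs in genome order (x axis), in SK-MEL-103 and in IMR-90. In SK-MEL-103 the values run from 0.50 for MT-RNR1 to -1.43 for MT-CO3, and MT-ND6, the diamond, has 0.48.

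Summed over all mitochondrially encoded genes, the share of counts was lower with siMFN1+2. It was 1.18%, 1.53% and 1.20% in siMFN1+2 libraries, against 2.23%, 2.75% and 2.11% in siMFN1 and 2.30%, 2.47% and 2.50% in siMFN2 libraries. No siMFN1+2 library reached the lowest single library. The siMFN1+2 mean was 1.09 percentage points below the mean of the single groups, which is written here as a difference of -1.09 (exact permutation test, two-sided, p = 0.0119, the smallest that 84 arrangements allow). Permuted within replicate number, the exact p was 0.037, the smallest that 27 arrangements allow. The control siRNA group had 2.57 ± 0.213% and proliferating cells 0.818 ± 0.110% (SD, n = 3 each), so the single arms were near the senescent control and the siMFN1+2 arm lay between it and proliferating cells. The libraries hold no molecular identifiers, so counts include PCR copies.

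**Figure D4:**
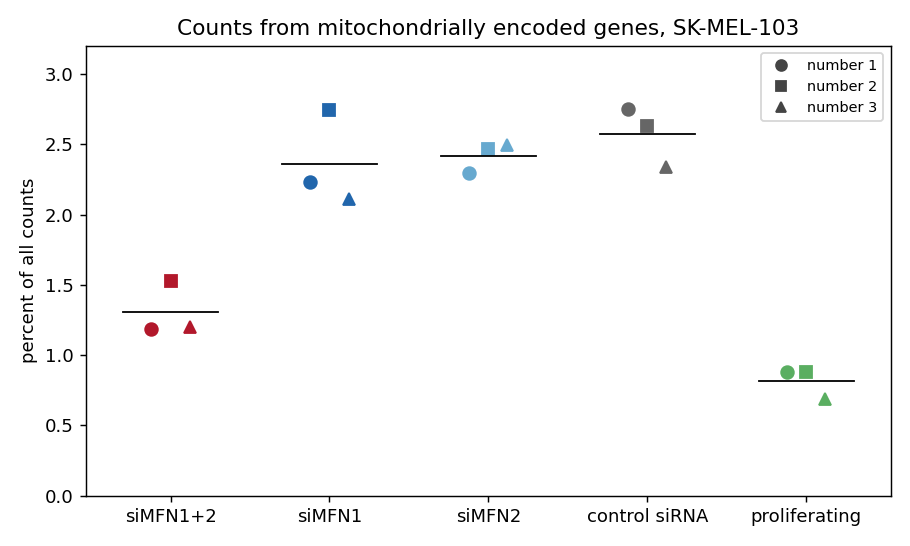
Share of all counts from mitochondrially encoded genes (y axis, percent, from 0) in each SK-MEL-103 library by group, with shapes for the replicate number and a line at the group mean. The 3 siMFN1+2 libraries sit at 1.18% to 1.53%, below all 6 single libraries at 2.11% to 2.75%.

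Both pseudogenes called lower are nuclear copies on chromosome 1. MTCO1P12 (ENSG00000237973, 631074 to 632616) had 260, 319 and 253 CPM in siMFN1+2 libraries, against 761, 761 and 553 CPM in siMFN1 and 580, 820 and 641 CPM in siMFN2 libraries (log2 fold change -1.30, SE 0.17, edgeR adjusted p = 0.0019). MTATP6P1 (ENSG00000248527, 633696 to 634376) averaged 127 ± 20.9 CPM in siMFN1+2 libraries, against 232 ± 25.6 CPM in siMFN1 and 241 ± 32.8 CPM in siMFN2 libraries (SD, n = 3 each; log2 fold change -0.90, SE 0.14, edgeR adjusted p = 0.013). Each had nearly the fold change of its source, -1.27 for MT-CO1 and -0.92 for MT-ATP6. MTCO1P12 matched 1522 of 1542 aligned bases of MT-CO1, 98.7%, with an identical run of 245 bases, and MTATP6P1 matched 671 of 681 bases of MT-ATP6, 98.53%, with an identical run of 141 bases. How reads with several matches were treated is not given in the sources used here, so counts of source and copy can be shared and the copies are reported as uncertain. The windows of 90 bases below are from GENCODE 29 transcripts on GRCh38 plus strand (chrM:6210-6299 with chr1:631380-631469, and chrM:8629-8718 with chr1:633798-633887). For each pair the window with the most differing bases was taken, 4 of 90, and these are in capitals. Over all aligned bases 20 of 1542 differ for MTCO1P12 and 10 of 681 for MTATP6P1.
MT-CO1: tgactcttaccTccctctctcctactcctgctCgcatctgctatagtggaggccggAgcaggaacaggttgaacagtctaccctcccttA
MTCO1P12: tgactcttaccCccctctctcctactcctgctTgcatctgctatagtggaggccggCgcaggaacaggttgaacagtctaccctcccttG
MT-ATP6: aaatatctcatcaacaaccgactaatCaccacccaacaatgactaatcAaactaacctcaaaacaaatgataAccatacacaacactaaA
MTATP6P1: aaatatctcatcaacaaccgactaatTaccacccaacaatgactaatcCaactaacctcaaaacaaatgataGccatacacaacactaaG
Counted from 1 at the 5′ end of each window, with the mitochondrial base first, the differences are T12C, C33T, A57C and A90G in the first pair and C27T, A49C, A73G and A90G in the second.

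None of the nuclear genes listed as maintaining or reading the mitochondrial genome was called. Of the list for mitochondrial genome expression and maintenance, 30 of 31 members were tested and 0 were called in either direction by edgeR (0 also at an unadjusted p below 0.05 and with the replicate block), with a median log2 fold change of 0.01 and values from -0.08 to 0.20. TFAM, which packages the genome and starts its transcription, had 61.6, 58.3 and 61.3 CPM in siMFN1+2 libraries, against 56.1, 56.9 and 60.9 CPM in siMFN1 and 68.0, 57.7 and 66.5 CPM in siMFN2 libraries. POLRMT, the mitochondrial RNA polymerase, averaged 72.4 CPM in siMFN1+2 libraries, against 68.9 and 77.3 CPM in siMFN1 and siMFN2 libraries, and LRPPRC, which stabilises mitochondrial messenger RNAs, 113 CPM against 101 and 120 CPM. Their groups overlapped, with 95% intervals of the log2 fold change of -0.23 to 0.20 for TFAM, -0.24 to 0.21 for POLRMT and -0.24 to 0.32 for LRPPRC. The nuclear-encoded respiratory chain subunits, which assemble with the mitochondrially encoded ones, had 0 of 53 members called by edgeR and 0 at an unadjusted p below 0.05, with a median of -0.01. Of 37 tested genes of mitochondrial fusion, fission and mitophagy, the 1 called was MFN2, and the inner-membrane fusion GTPase OPA1 and the fission GTPase DNM1L had log2 fold changes of 0.03 each.

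The siMFN1+2 arm was also set against each single arm by itself. Against siMFN1, edgeR called 10 genes lower, 0.0557% of all, and 0 higher (308 genes at an unadjusted p below 0.05, and 13 called by DESeq2, all lower). They were MFN2 (log2 fold change -2.04, SE 0.11), 7 mitochondrial messenger RNAs, MTCO1P12 and STMN4, a stathmin-family gene. The replicate block added MTATP6P1 against siMFN1 (-0.88, SE 0.14, edgeR adjusted p = 0.022, and 0.064 without the block), for 11 genes, 0.0613%. Against siMFN2, 13 genes were called lower, 0.0724%, and 0 higher (677 at an unadjusted p below 0.05): MFN1 (-1.35, SE 0.16), 8 mitochondrial messenger RNAs, both pseudogenes, FAM89B and MYBL1. With the replicate block, the count against siMFN2 was 24 lower and 4 higher, 28 in all or 0.156% (0.134% lower and 0.0223% higher), and DESeq2 gave 24 lower and 8 higher. The 15 genes the block added against siMFN2 included MT-ATP8, IFI6, IFIT1 and CCL2, and 0 of the 15 were called when the siMFN2 library without a number was left out of the blocked fit, which then called 12 genes. The mitochondrial values were alike in both: MT-CO3 had -1.43 (SE 0.22) against siMFN1 and -1.42 (SE 0.22) against siMFN2, and MT-CYB had -1.21 (SE 0.13) and -1.18 (SE 0.13). The 2 comparisons share the siMFN1+2 libraries, so their likeness is no separate support.

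The remaining 3 genes, named after their values were seen, lay nearer to 1 of the single arms. STMN4 had 2.40, 2.04 and 0.89 CPM in siMFN1+2 libraries, against 8.07, 10.2 and 9.77 CPM in siMFN1 and 0.71, 0.89 and 0.92 CPM in siMFN2 libraries. FAM89B had 10.4, 11.4 and 12.4 CPM in siMFN1+2 libraries, against 10.3, 10.7 and 10.7 CPM in siMFN1 and 16.9, 21.8 and 19.6 CPM in siMFN2 libraries. MYBL1, a MYB-family transcription factor, had 29.5, 32.4 and 46.8 CPM in siMFN1+2 libraries, against 25.1, 29.8 and 34.6 CPM in siMFN1 and 71.5, 63.1 and 86.4 CPM in siMFN2 libraries. STMN4 was thus nearer to siMFN2 than to siMFN1 libraries, and FAM89B and MYBL1 overlapped siMFN1 libraries. Their averaged contrasts were -0.57 (SE 0.35), -0.33 (SE 0.10) and -0.38 (SE 0.16), and none was called.

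Whether the siMFN1+2 effect exceeded the sum of the single effects was tested as the log2 difference of siMFN1+2 from control siRNA minus the differences of siMFN1 and of siMFN2 from it. By edgeR 0 of 17945 genes were called, with 126 at an unadjusted p below 0.05 and a smallest adjusted p of 0.81, and with the replicate block again 0, with a smallest adjusted p of 0.225. DESeq2 called 10 genes, 9 of them lower and 7 of them mitochondrial messenger RNAs. With no filter on low counts edgeR called 29, 14 higher and 15 lower, and 10 of them were mitochondrial messenger RNAs. On the libraries of the contrast alone edgeR called 1, a mitochondrial messenger RNA. The result thus differs between tools and between settings of edgeR. MT-CYB had a log2 difference from control of -1.43 with siMFN1+2, -0.22 with siMFN1 and -0.25 with siMFN2, a departure from the sum of -0.96 (SE 0.19, edgeR adjusted p = 0.81). MT-CO3 had -1.49 with siMFN1+2, -0.06 with siMFN1 and -0.07 with siMFN2, a departure of -1.36 (SE 0.31, edgeR adjusted p = 0.87). For both, neither single arm was called against the control and the siMFN1+2 arm was (edgeR adjusted p = 3.9e-05 for MT-CYB and 0.0037 for MT-CO3). IFI6 went the other way, with -2.42 with siMFN1+2, -2.003 with siMFN1 and -1.52 with siMFN2, a departure of 1.11 (SE 0.23, edgeR adjusted p = 0.81).

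Among the interferon-stimulated genes most values were slightly negative. None was called by edgeR in the averaged contrast with the filter on low counts and no replicate block. Of 54 in the list, 47 were tested, and 0 were called by edgeR (10 at an unadjusted p below 0.05, all lower, beside 0.942% of all genes at that p in either direction and 0.541% lower). The log2 fold change was negative in 43 of 47, 91.5%, beside 46.0% of all genes tested, with a median of -0.14 beside 0.01 over all genes, and 4 of 47 had all siMFN1+2 libraries below all singles, a separation found in 0.591% of all genes tested. IFI6 (ENSG00000126709, chromosome 1, 27666061 to 27672218), an interferon-induced protein that inhibits apoptosis, had 11.6, 12.5 and 16.0 CPM in siMFN1+2 libraries, against 19.5, 14.8 and 18.8 CPM in siMFN1 and 24.1, 29.0 and 20.9 CPM in siMFN2 libraries. The siMFN1+2 libraries overlapped those of siMFN1 and not those of siMFN2, and each was below the siMFN1 library of its own number. Its log2 fold change was -0.66 (SE 0.15, 95% interval -0.97 to -0.34), which edgeR did not call (adjusted p = 0.50) and DESeq2 did (adjusted p = 0.049). With no filter on low counts, edgeR called IFI6 as well (adjusted p = 0.0011). Against siMFN2 alone the value was -0.90 (SE 0.17, edgeR adjusted p = 0.066) without the replicate block and -0.91 (SE 0.16, edgeR adjusted p = 0.038) with it, and the blocked adjusted p was 0.22 when the siMFN2 library without a number was left out. In order of level, IFI6 averaged 7.16 ± 1.60 CPM in proliferating cells, 13.4 ± 2.37 CPM with siMFN1+2, 17.7 ± 2.54 CPM with siMFN1, 24.6 ± 4.10 CPM with siMFN2 and 70.9 ± 6.18 CPM with the control siRNA (SD, n = 3 each). Of the neighbours in that order, only siMFN1+2 and siMFN1 overlapped.

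IFIT1 (ENSG00000185745, chromosome 10, 89392546 to 89406486), which binds viral RNA lacking a self cap, was named after its values were seen. It had 7.12, 6.89 and 5.11 CPM in siMFN1+2 libraries, against 11.4, 9.11 and 10.4 CPM in siMFN1 and 14.3, 14.3 and 8.09 CPM in siMFN2 libraries, with no overlap. Its log2 fold change was -0.81 (SE 0.22), not called without the replicate block (edgeR adjusted p near 1) and called with it (-0.82, edgeR adjusted p = 0.049), though not when the siMFN2 library without a number was left out of the blocked fit (adjusted p = 0.14). Against siMFN2 alone its blocked value was -0.93 (edgeR adjusted p = 0.028, and 0.55 without the block). ISG15, a ubiquitin-like modifier, had 31.8, 31.3 and 32.0 CPM in siMFN1+2 libraries, against 40.5, 34.9 and 40.0 CPM in siMFN1 and 36.5, 49.3 and 37.4 CPM in siMFN2 libraries, again with no overlap and with a log2 fold change of -0.33 (SE 0.12). RSAD2 and IFITM1 had the most negative values of the list, -1.40 (SE 0.44) and -1.80 (SE 0.59), at levels below 0.5 CPM in each of the 3 groups. SP100, IFIT5, HELZ2 and MX2 had log2 fold changes near 0, of -0.01, -0.02, -0.03 and 0.01. The highest value of the list was 0.20.

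The promoters of IFI6 and IFIT1 are shown because these genes carry the clearest of the interferon-stimulated values above. The windows run from 250 bases before to 50 after the start, from RefSeq on GRCh38.p14 (IFI6 minus strand, chr1:27672143-27672442, and IFIT1 plus strand, chr10:89392373-89392672). Capitals mark the 10-letter pattern GAAANNGAAA, searched on both strands, which is the core of the interferon-stimulated response element.
IFI6: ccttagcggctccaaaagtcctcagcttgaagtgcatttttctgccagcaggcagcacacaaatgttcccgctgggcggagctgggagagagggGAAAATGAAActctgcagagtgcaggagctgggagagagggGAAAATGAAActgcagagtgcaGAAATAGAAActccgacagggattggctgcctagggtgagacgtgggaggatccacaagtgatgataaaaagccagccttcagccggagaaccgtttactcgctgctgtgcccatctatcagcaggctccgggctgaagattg
IFIT1: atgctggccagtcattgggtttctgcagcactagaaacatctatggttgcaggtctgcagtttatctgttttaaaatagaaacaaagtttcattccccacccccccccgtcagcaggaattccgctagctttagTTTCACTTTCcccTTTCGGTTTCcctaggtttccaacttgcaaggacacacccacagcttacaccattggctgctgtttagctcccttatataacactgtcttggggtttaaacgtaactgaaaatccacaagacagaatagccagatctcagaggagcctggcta
The IFI6 window held 3 matches and the IFIT1 window 2, none overlapping another. The pattern was in 27 of the 43 interferon-stimulated promoters matched, 62.79%, and in 1255 of 35116 promoters of the same length, 3.574%. A match describes the sequence only.

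In the averaged contrast, other groups of genes showed no called change. The lists of cytosolic nucleic acid sensing, MHC class I presentation, senescence-associated secretory cytokines and proteases, NF-kB targets, p53 targets, the cell cycle, stress responses, lipid synthesis, oxidative stress, lysosome and glycolysis had 0 genes called by edgeR, with and without the replicate block, and medians from -0.06 to 0.08. Values were negative in 18 of 21 MHC class I genes, 85.7%, and in 14 of 21 nucleic acid sensing genes, 66.7%, beside 46.0% of all genes tested. The other lists named here ran from 30.0% negative for the cell cycle to 62.5% for NF-kB targets. The average can hide opposite differences from the single arms: the cell cycle list had a median of 0.27 against siMFN1 and -0.18 against siMFN2, with 0 of 40 genes called in either. CCL2, a chemokine of the secretory list, had 2.92, 2.72 and 8.49 CPM in siMFN1+2 libraries, against 2.28, 2.89 and 6.13 CPM in siMFN1 and 12.1, 8.19 and 17.8 CPM in siMFN2 libraries. It was called lower against siMFN2 with the replicate block (-1.56, SE 0.29, edgeR adjusted p = 0.044) and not without it (-1.50, SE 0.47, edgeR adjusted p near 1). RIGI and IFIH1, the cytosolic RNA sensors, had log2 fold changes of -0.20 (SE 0.11) and -0.09 (SE 0.17), and the DNA sensor CGAS had -0.14 (SE 0.21). CDKN1A, the p53-induced inhibitor of the cell cycle, averaged 2047 CPM in siMFN1+2 libraries, against 2168 and 1919 CPM in siMFN1 and siMFN2 libraries (log2 fold change 0.01, SE 0.10). IL1B, an inflammatory cytokine of senescent cells, averaged 97.8 CPM in siMFN1+2 libraries, against 98.7 and 93.8 CPM in the single arms (0.02, SE 0.13). ATF4, the transcription factor of the integrated stress response, had -0.05 (SE 0.09), and HSPD1, a chaperone of the mitochondrial matrix, 0.03 (SE 0.15). For the 11236 better expressed genes the median SE was 0.111. With the filter on low counts and no replicate block, the smallest change edgeR called was the -0.88 of MT-ND4L. MT-ND1 at -0.51 and IFI6 at -0.66 were not called in that fit. Of these genes, 33 had an absolute log2 fold change of at least 0.5, among them 11 mitochondrial messenger RNAs.

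**Figure D5:**
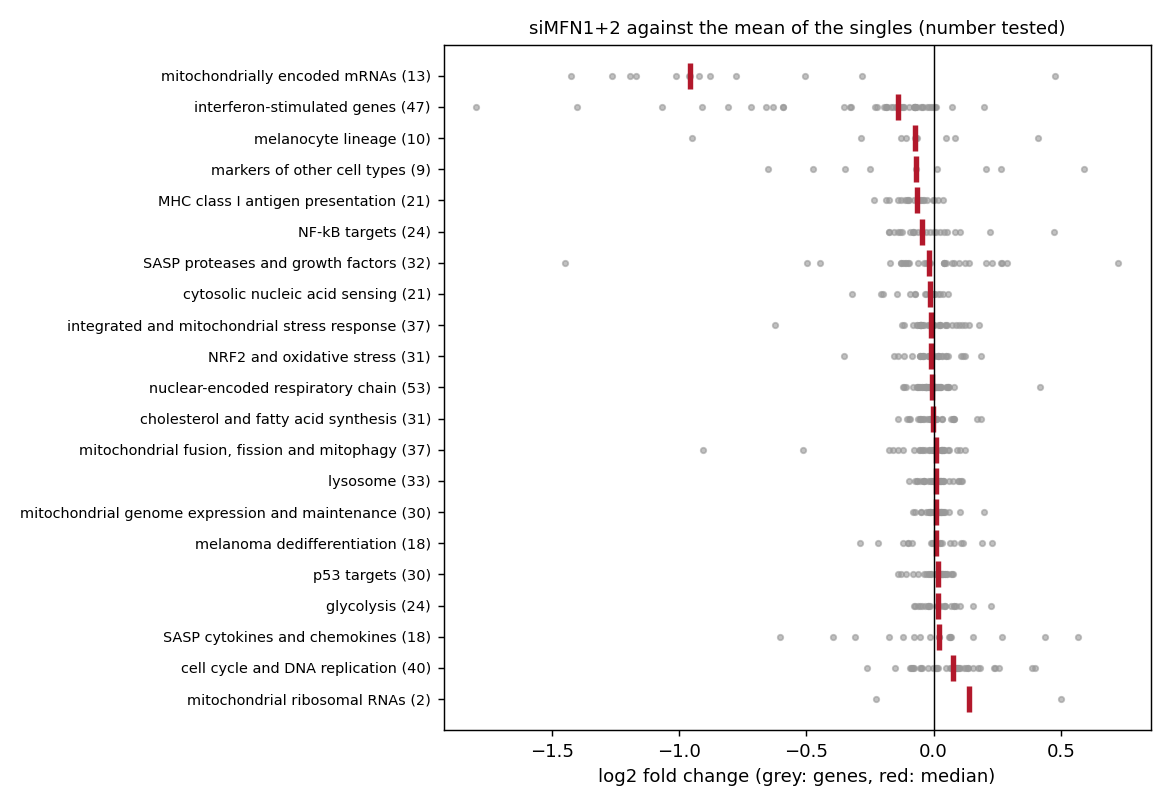
Log2 fold change of siMFN1+2 against the mean of the single arms in SK-MEL-103 (x axis) for the tested members of 21 gene lists (rows, number tested in brackets); each grey point is 1 gene and the red bar is the median. The mitochondrially encoded messenger RNAs have a median of -0.96 and the interferon-stimulated genes one of -0.14.

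The same contrast in IMR-90, a line of fetal lung fibroblasts with siRNAs of the same names and doxorubicin, called 16 genes lower, 0.0839% of 19077 tested, and 0 higher. They included 10 of the 13 mitochondrial messenger RNAs, whose median log2 fold change was -0.96 in SK-MEL-103 and -2.09 in IMR-90. MT-CO3 in IMR-90 had 424, 639 and 236 CPM in siMFN1+2 libraries, against 2922, 3540 and 2799 CPM in siMFN1 and 1858, 2398 and 1018 CPM in siMFN2 libraries. These groups did not overlap (log2 fold change -2.43, SE 0.31, edgeR adjusted p = 0.0079). The SK-MEL-103 value less the IMR-90 value was positive for all 13 messenger RNAs, from 0.81 for MT-ND3 to 1.77 for MT-ND6, and 0.99 (SE 0.35) for MT-CO3. In 1 fit of the 36 siRNA libraries, edgeR called 0 of 20892 genes for this difference, with 331 at an unadjusted p below 0.05, and DESeq2 called 0, which does not show that the lines respond alike. MFN2 had 18.1 ± 2.00 CPM in siMFN1+2 libraries of IMR-90, against 144 ± 3.44 CPM in siMFN1 and 17.3 ± 1.69 CPM in siMFN2 libraries (SD, n = 3 each), and MFN1 had 11.3 ± 4.999 CPM, against 7.31 ± 0.313 and 59.6 ± 11.4 CPM. IFI6 in IMR-90 averaged 10.2 ± 2.16 CPM in siMFN1+2 libraries, against 14.2 ± 2.11 CPM in siMFN1 and 13.3 ± 5.13 CPM in siMFN2 libraries, with overlap and a log2 fold change of -0.42 (SE 0.32).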

How the data were processed

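The authors deposited raw counts per Ensembl gene for 48 libraries, whole numbers with no normalization. The submitters' processing notes name Trim Galore 0.6.7, STAR 2.7.10a, featureCounts and GRCh38, and per the labels' protocols the libraries came from a stranded poly(A) kit. The annotation, the strand setting and the treatment of multiply mapped reads are not given in the sources used here. The table holds 48898 genes, 48679 with a symbol, and 46876 are in GENCODE 29, the source of positions.

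From these counts edgeR 4.0.16 (limma 3.58.1) in R 4.3.3 was run: genes were kept by filterByExpr, libraries were scaled by TMM, and 18 SK-MEL-103 siRNA libraries in 6 groups were fitted together by quasi-likelihood so that they share 1 spread, with Benjamini-Hochberg adjustment over all genes tested. CPM are on TMM-scaled library sizes, and SEs are the log2 fold change divided by root F. DESeq2 1.42.0, RLE scaling, no filter, mitochondrial genes left out, a replicate block and left-out libraries were the alternatives. The code of the fit was run on simulated counts with the same spread for all genes and no effect of replicate number. That run does not show how the p-values behave in the real libraries. Sequences were aligned with Biopython 1.88 and plots drawn with matplotlib 3.10.9.

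No library was a copy of another (smallest chi-square per degree of freedom 11.1 over pairs of a group). The replicate numbers are from the titles, and 1 siMFN2 library without a number was taken as 1, since 2 and 3 are taken in its group. Deviations from group means correlated between same-numbered libraries (r 0.322 to 0.806 over 9 pairs, across 11236 genes), beside r -0.700 to 0.419 between different numbers. Because deviations cancel out within a group, positive values for same-numbered pairs by themselves pull down those of different numbers. The lower range is therefore no separate support for the pairing. The unnumbered library had r 0.322 with siMFN1 library 1 and 0.515 with siMFN1+2 library 1, and -0.360 to 0.110 with libraries of other numbers. However, siMFN1 library 1 correlated more with siMFN2 library 2 (r 0.419). The numbers were taken to pair the libraries, with that limit for the unnumbered one. The main fit nevertheless leaves this pairing out. With the replicate block, genes at an unadjusted edgeR p below 0.05 went from 169 to 291 in the averaged contrast. They went from 308 to 583 against siMFN1 and from 677 to 1239 against siMFN2. The blocked value is given where it changes the call of a gene described, with a count for the other genes.

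The members and the 21 lists were chosen with earlier results of these data known. The naming rule takes MFN1, MFN2, MAVS, IFI6 and the 13 mitochondrial messenger RNAs always, the 10 highest and 10 lowest called genes whose mean log2 CPM is 2 or higher and whose groups do not overlap, up to 3 called members per list and direction, and up to 3 called genes each way for the departure from the sum and for the cell lines. A few genes, kept in the tests, are not reported here.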

Additional observations from a re-analysis of the deposited data

How the results depend on the processing

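The 11 genes called in the averaged contrast were called again with RLE scaling, the replicate block (13 in all) and DESeq2 (15 in all). Left-out libraries gave 6 to 11 calls, with 6 without siMFN1+2 library 1 and 6 without siMFN1+2 library 3, 4 of them mitochondrial messenger RNAs each time. Against siMFN1 the range was 3 to 11 (3 without siMFN1+2 library 1 or 3, and 4 without siMFN1 library 2), and against siMFN2 it was 4 to 11 (4 without siMFN1+2 library 1, 8 without its library 3, 7 without siMFN2 library 2 and 6 without its library 3). With no filter on low counts, 43 genes were called in the averaged contrast, 71 against siMFN1, 191 against siMFN2 and 29 for the departure from the sum. Of those 43, 16 were higher and 27 lower, and 11 were mitochondrial messenger RNAs. That setting tests every gene with any count, a larger set than 17945, so its counts have no share of 17945. In the averaged contrast it had 977 genes at an unadjusted edgeR p below 0.05, beside 169 in the main fit. Adjusted p-values quoted with no filter belong to that fit. With mitochondrial genes left out, 3, 2 and 3 genes were called in the averaged contrast, against siMFN1 and against siMFN2, fewer by construction. DESeq2 called 32 genes against siMFN2 (8 higher, 24 lower) and 10 for the departure from the sum, and the replicate block 28 against siMFN2. The block without the unnumbered siMFN2 library gave 1 call for the departure. The fit on the libraries of the contrast alone gave 5 against siMFN1 and 1 for the departure. The cause of these shifts was not tested. In the averaged contrast and against siMFN1, the replicate block changed no other call than those given in the text. Against siMFN2 it added 15 genes and lost none, and without the unnumbered siMFN2 library 0 of the 15 were called and the blocked count was 12. Departure from the sum and cell-line difference kept 0 calls with every library left out in turn. The difference in the share of counts ran from -1.20 to -0.992 percentage points over left-out libraries. Where a group was left with 2 libraries the spread is pooled over groups.

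MFN2, MT-CO1, MT-CO2, MT-CYB, MT-ND4 and MTCO1P12 kept their call in all settings run for them. MT-CO3, MT-ATP6, MT-ND5 and MTATP6P1 lost it in 2 settings each, without siMFN1+2 library 1 or 3 (MT-CO3 adjusted p up to 0.0994), and MT-ND4L in 6. Other genes gained a call. MFN1 and MT-ND1 did so in 1 setting each, with no filter on low counts, and IFI6 in 2, with no filter and by DESeq2. MT-ND3 and MT-ATP8 did so in 3 settings each, with no filter and by DESeq2 for both. The third was the fit on the libraries of the contrast alone for MT-ND3 and the replicate block for MT-ATP8. The MAVS value ran from -0.018 to 0.052 over left-out libraries, below 0 without siMFN2 library 2 and without siMFN1+2 library 2 (-0.0084). The MT-ND6 value ran from -0.054 to 0.73, below 0 without siMFN1+2 library 2. With 3 libraries a group, the median SE was 0.111 among better expressed genes and 0.162 among the 47 interferon-stimulated genes tested. The median log2 fold change of those 47 was -0.14, and 0 of them were called by edgeR after adjustment over 17945 genes. Why they were not called was not tested.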
